A study of Rattus norvegicus with 24 samples.

Results

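Linalool inhalation under restraint was compared with restraint alone in the hypothalamus of male Wistar rats, an outbred laboratory strain, aged 7 weeks. All 12 rats of the comparison were restrained for 2 h. Of these, 6 breathed (R,S)-linalool, the racemic form of a monoterpene alcohol found in lavender oil, and 6 were restrained only. For the inhalation, 20 µL of linalool were evaporated into a box of 40 L. Each rat's hypothalamus, cut out as a block of tissue right after the exposure, gave the RNA for an array of its own that reads the 3' part of transcripts. The members are the probe sets with exactly 1 gene symbol in the platform annotation, array controls left out: 20826 of the 31099 probe sets, covering 14217 genes. They were taken from the 12 of the 24 deposited columns of the series that the authors had normalized together, that is, the stress columns marked as a re-analysis and the linalool columns. No control rats without restraint enter here, so no value says whether a difference moves toward or away from the unstressed state.

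The hypothalamus joins neurons that release peptide hormones, such as corticotropin-releasing hormone, vasopressin and oxytocin, with circuits that set feeding, sleep and body temperature. Restraint is a widely used acute stressor that activates these neurons and raises circulating glucocorticoids. Linalool reaches the brain both as an odour, through the olfactory epithelium, and by the blood after it is inhaled.

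Values are log2 signals. The spread between rats of 1 group, the residual SD, was below 0.01 log2 units for 81.7% of the probe sets (median 0.000153 among them), which are called compressed here, and had a median of 0.0964 for the other 3808, called wide. For compressed probe sets the log2 difference is close to 0 whatever the separation of the groups, so a difference is often stated relative to the residual SD of its own probe set. On that scale the standard error of every difference is 0.577. A probe set counts as called, and as having risen or fallen, when its adjusted p in limma was under 0.05 (Benjamini-Hochberg over all 31099 probe sets). Gene lists use 1 probe set per gene, the one with the highest mean signal.

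The linalool arrays differed from the stress arrays at 5885 of the 20826 members (28.3%). Of these, 3556 were higher with linalool (17.1% of members) and 2329 lower (11.2%), a share of 60.4% higher. With each array centred on its median, 19406 members were called and 94.4% of them were higher. At 2919 members (14.0%) the 6 arrays of one group all lay above the 6 of the other. Counted as genes, 4029 of 14217 (28.3%) were called, 2744 higher (19.3%) and 1285 lower (9.04%), and the median gene differed by 0.23 residual SDs. Among the 2694 wide genes 1437 were called (53.3%), 992 higher (36.8%) and 445 lower (16.5%), and the median gene differed by 0.64 residual SDs.

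The direction of a call was stable against scaling in wide members and not in compressed ones. Of the 2025 wide members called, 2024 were called in the same direction after median centring and 1743 after quantile normalization, and none was called in the opposite direction in either. Of the 1519 compressed members called lower, 1453 were called higher after median centring. Quantile normalization left few compressed calls of either direction. Of 3860 compressed members called, 112 were called in the same direction, 32 in the opposite one and 3716 not at all. Among the 2341 compressed members called higher, 91 were kept. For this reason the wide genes are counted separately for some of the gene lists below. A list count without wide genes beside it includes compressed genes, so its directions may depend on scaling. Wide members that rose did so by a median of 0.23 log2 units, a fold of 1.17, and those that fell by a median of -0.26, a fold of 1.20. Differences of 0.5 or more were seen at 35 of the 1215 wide members that rose and at 79 of the 810 that fell. The range ended at -1.0 for Kcnc2 and a rise of 1.12 for 1 of the probe sets of Lamp1, a lysosomal membrane protein. Lamp1 was named after its values were seen, and its other probe sets are compressed and did not pass (-0.51 and 0.12 residual SDs).

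The groups of arrays were separated along the first principal component over all members, which held 50.3% of the variance. Stress arrays had scores of -156 to -96.1 and linalool arrays 108 to 161. The size of these scores is that of values in residual SDs, a scale set by the spread within groups. That scale enlarges differences between groups, so the separation and the share of variance are in part built in. No array lay between the groups. Control probe sets of the array also differed. Of the 24 probe sets for bacterial poly-A RNAs (dap, lys, phe and thr), which serve as controls of labelling, 11 were higher with linalool and none lower, and their mean score, the mean over the 24 of each array's deviation in residual SDs, was -1.84 to 0.09 in the stress arrays and 0.29 to 1.75 in the linalool arrays, without overlap. Of the 18 hybridisation controls (bioB, bioC, bioD and cre), 4 were lower and none higher, with scores of -0.73 to 1.52 in stress arrays and -1.40 to 0.27 in linalool arrays. Only 4 of the 24 poly-A and 7 of the 18 hybridisation controls are wide, so these scores rest mostly on compressed probe sets. Among the wide ones, a phe probe set rose by 0.34 (adjusted p = 0.000513) and a bioD probe set fell by 0.19 (adjusted p = 0.00161). Among 12 probe sets for ends of rat transcripts and ribosomal RNA, 2 were higher and 6 lower; the 5S ribosomal RNA fell by 0.39 (SE 0.064, adjusted p = 0.00176). There the 5' end of the beta-actin transcript rose by 0.20 (SE 0.0324, adjusted p = 0.00168) and the 5' end of Gapdh fell by 0.10 (SE 0.0334, adjusted p = 0.0415). Labelling, hybridisation or another step that differed between the groups of arrays and the odour cannot be told apart in any result below.

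**Figure D1:**
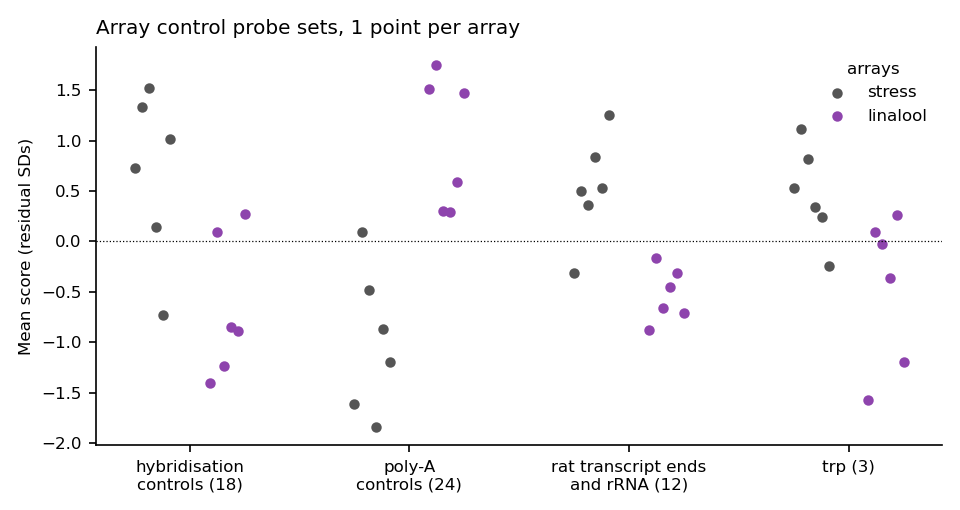
Mean score of the array control probe sets in each of the 12 arrays, as the average deviation from the 12-array mean in residual SDs (vertical axis), by kind of control with the number of probe sets in brackets (horizontal axis); grey points are stress arrays and purple points linalool arrays. The poly-A controls of the 6 linalool arrays sit at 0.29 to 1.75, all above the stress arrays, while the hybridisation controls sit lower on average and overlap.

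Among members at or above the median signal whose groups did not overlap, the 10 higher and 10 lower ones farthest apart on the scale of their own spread were named, 1 probe set per gene. Nop10, a small protein of the box H/ACA particles that guide pseudouridylation, had log2 signals of 11.27, 11.33 and 11.35 in the stress arrays (lowest, median and highest) and 11.66, 11.68 and 11.76 in the linalool arrays. Every linalool array was above every stress array, and the difference of 0.38 came to 10.75 residual SDs (SE 0.0205, adjusted p = 1.89e-05). Ndufa3, an accessory subunit of respiratory complex I, had 11.17, 11.26 and 11.34 with stress alone and 11.64, 11.67 and 11.69 with linalool. The linalool arrays lay within a narrow band above all stress arrays (10.04 residual SDs, adjusted p = 1.89e-05). Rps3, a protein of the small ribosomal subunit, had 11.25, 11.28 and 11.42 with stress alone and 11.77, 11.90 and 11.95 with linalool. One stress array lay apart from the other 5 at Rps3 and was still below all linalool arrays (9.48 residual SDs, difference 0.59, SE 0.0357, adjusted p = 2.02e-05).

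The same rule named Wsb2 (0.52), a substrate adaptor of ubiquitin ligases, Poldip2 (0.34), which binds DNA polymerase delta, Sec61g (0.50), a subunit of the channel through which nascent proteins enter the endoplasmic reticulum, and Preb (0.32), which starts the budding of vesicles from it. It also named the glutathione transferase Gstm1 (0.42), the calmodulin gene Calm2 (0.29), and Qdpr (0.43), the reductase that regenerates the cofactor of monoamine synthesis. In each of these 7 genes the groups did not overlap, and adjusted p-values ran from 2.18e-05 (Wsb2) to 3.66e-05 (Preb).

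At the lower end stood Syt11, a synaptotagmin without calcium binding that sits on intracellular vesicles. Its signals were 9.07, 9.12 and 9.16 in the stress arrays (lowest, median and highest) and 8.39, 8.50 and 8.62 in the linalool arrays, and the groups lay wholly apart (-10.17 residual SDs, difference -0.61, SE 0.0346, adjusted p = 1.89e-05). Rgs5, a regulator of G-protein signalling abundant in pericytes, had 10.27, 10.45 and 10.49 with stress alone and 9.68, 9.77 and 9.86 with linalool (-9.02 residual SDs, adjusted p = 2.25e-05). Its linalool arrays were again all below its stress arrays. Slc1a2, the main glutamate transporter of astrocytes, had 9.20, 9.31 and 9.44 with stress alone and 8.83, 8.89 and 8.93 with linalool (adjusted p = 9.76e-05), and Kif5a, a neuronal kinesin that carries cargo along axons, had 11.05, 11.16 and 11.22 with stress alone and 10.73, 10.77 and 10.83 with linalool (adjusted p = 5.3e-05). Both fell in every linalool array below every stress array, and all 3 probe sets of Kif5a fell. The others were Cds2 (-0.63), an enzyme of phosphoinositide synthesis, Ap1s1 (-0.46), a subunit of the clathrin adaptor AP-1, the retinoid X receptor gene Rxrb (-0.25), the mitochondrial transporter Abcb10 (-0.32), Abhd8 (-0.71) and the compressed Sipa1l3 (-7.42 residual SDs). Sipa1l3 is 1 of the compressed members whose direction turned after median centring and after quantile normalization.

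The members with the largest log2 differences under the same limits include Rps3, Rgs5 and Abhd8, given above, and further genes. Kcnc2, a fast voltage-gated potassium channel subunit of the Kv3 family, had 8.50, 8.96 and 9.50 in the stress arrays (lowest, median and highest) and 7.67, 7.97 and 8.35 in the linalool arrays. Its groups did not overlap, and 6 of 6 probe sets of the gene fell (difference -1.0, SE 0.189, adjusted p = 0.00372). Rgs7bp, which anchors regulators of G-protein signalling at the membrane, had 9.39, 10.08 and 10.23 with stress alone and 8.55, 9.04 and 9.17 with linalool (difference -0.98, SE 0.183, adjusted p = 0.00342), and Map1b, a microtubule-associated protein of axons, had 10.89, 11.35 and 11.64 with stress alone and 10.04, 10.42 and 10.64 with linalool (difference -0.94, SE 0.144, adjusted p = 0.00125). Within each group these 3 genes varied more than Syt11 or Ndufa3, so differences near 1 log2 unit came to only a few residual SDs: -3.04, -3.09 and -3.77. Upward, Mdm2, the ligase that marks p53 for degradation, had 8.87, 9.02 and 9.07 with stress alone and 9.18, 9.96 and 10.11 with linalool (difference 0.85, SE 0.142, adjusted p = 0.00191). The lowest linalool array was well below the other 5 but above the highest stress array. Babam2, a subunit of a deubiquitinating complex of DNA repair, rose by 0.77, Gpcpd1, a glycerophosphodiesterase, by 0.77, the glutathione transferase Gsta1 by 0.66, the translation factor subunit Eif3l by 0.66, the secreted ribonuclease Rnase4 by 0.60 and the homeodomain protein Hopx by 0.58, with adjusted p-values of 7.19e-05 to 0.00267.

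**Figure D2:**
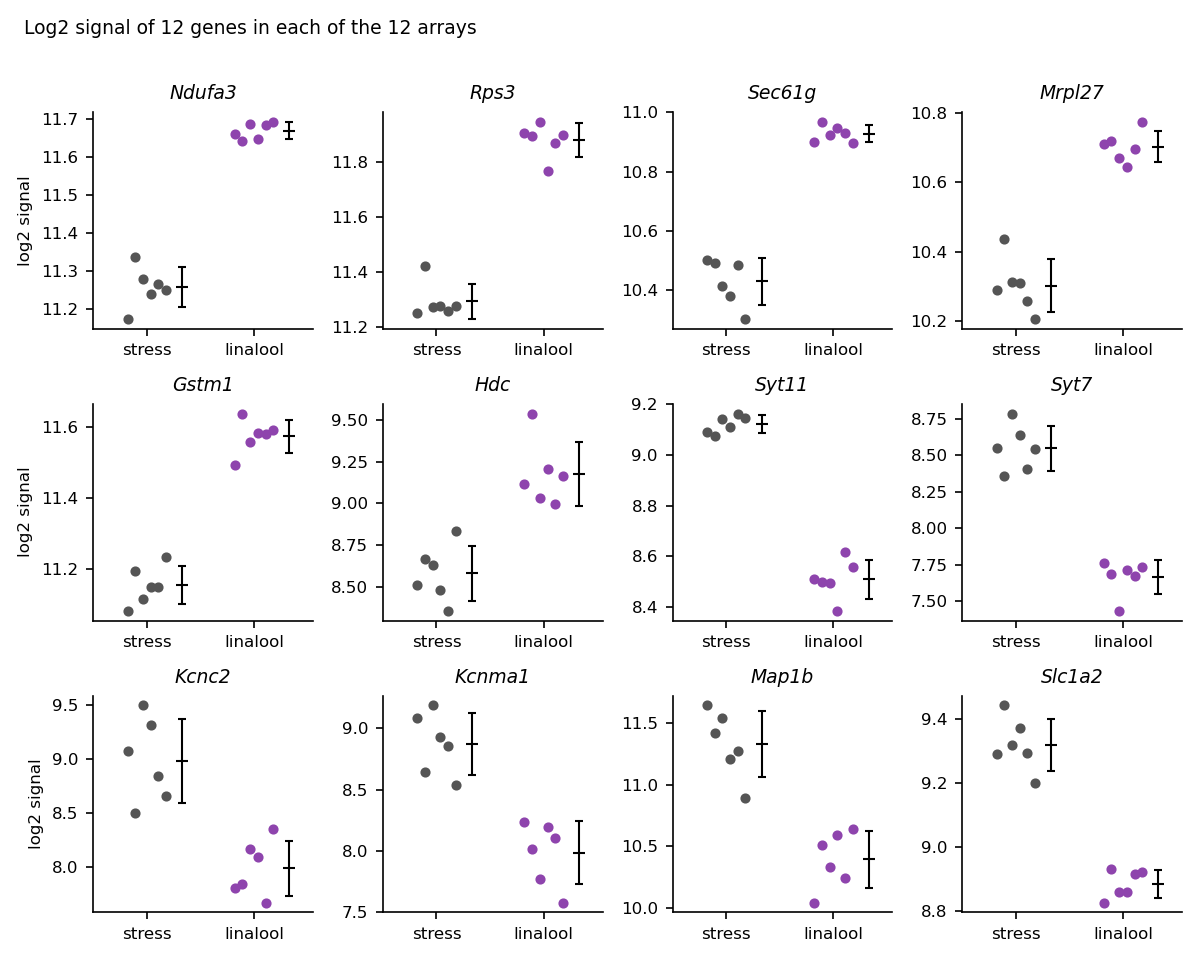
Log2 signal (vertical axes, 1 scale per gene) of 12 genes in the 6 stress and 6 linalool arrays, 1 point per array, with the group mean and SD beside the points. The first 6 genes, Ndufa3 to Hdc, lie higher with linalool and the last 6, Syt11 to Slc1a2, lie lower, and in none of the 12 do the groups overlap.

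Many genes of transmitter release fell. Of 42 measured genes of synaptic vesicle release and recycling, 21 fell, 3 rose and 18 did not pass, against 9.04% lower and 19.3% higher over all genes. After median centring 17 were called lower and 17 higher. Among its 27 wide genes, 16 fell and 2 rose, and after centring 16 were lower and 3 higher. Quantile normalization gave 16 lower and 0 higher. The list's median was -1.60 residual SDs, against 0.23 for all genes. Its mean score per array ran from 0.25 to 1.29 in the stress arrays and -1.45 to -0.15 in the linalool arrays, in residual SDs, with no overlap. In a block of tissue, fewer cells of a type and less RNA per cell cannot be told apart.

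Syt7, a slow calcium sensor of vesicle fusion, had 8.36, 8.55 and 8.79 in the stress arrays (lowest, median and highest) and 7.44, 7.70 and 7.76 in the linalool arrays (difference -0.88, SE 0.0796, adjusted p = 0.000112). The linalool arrays were all lower, and 3 of 3 probe sets of Syt7 fell. Dnm3, a dynamin that pinches off membrane at synapses, fell at both its probe sets (-0.90 and -0.17, adjusted p = 0.00182 and 0.000665), and Sgip1, an endocytic adaptor, fell by 0.65 (adjusted p = 0.00209). Syt1, the fast calcium sensor, had 9.63, 9.71 and 10.02 with stress alone and 9.38, 9.42 and 9.47 with linalool (adjusted p = 0.00329), again without overlap. Of the 21 genes that fell 5 are compressed: Synj1, Erc1, Amph, Pclo and Unc13a. Besides Syt7, Dnm3, Sgip1, Syt1 and Syt11, the genes that fell were the vesicle proteins Sv2a, Sv2b, Vamp2, Syn1 and Rab3c, the active zone proteins Bsn, Pclo, Rims1, Rims2, Erc1 and Unc13a, and the endocytic proteins Dnm1, Synj1, Amph, Sh3gl2 and Snap91. The 3 that rose were Unc13b, Vamp1 and Nsf. Those calls were less firm: Unc13b is compressed (4.42 residual SDs, adjusted p = 0.000618), the call of Vamp1 (0.16, adjusted p = 0.0399) ended without linalool array 1, 2, 5 or 6 or stress array 2, 4, 5 or 6 (1.62 to 1.84 residual SDs), and that of Nsf (0.18, adjusted p = 0.0473) ended without linalool array 1, 2, 5 or 6 or any stress array (1.54 to 1.87 residual SDs).

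On the receiving side, 12 of 30 postsynaptic scaffold and adhesion genes fell and none rose, with a median of -0.88 residual SDs; after median centring 9 were lower and 15 higher, while its 15 wide genes gave 9 lower and 0 higher. After quantile normalization 7 postsynaptic genes were lower and none higher, and so were 3 of the glutamate receptor subunits described next. Shank3, a master scaffold of excitatory synapses, had 10.11, 10.41 and 10.71 in the stress arrays (lowest, median and highest) and 9.61, 9.80 and 10.11 in the linalool arrays (difference -0.56, SE 0.118, adjusted p = 0.00609). Its linalool arrays were all below its stress arrays. The related scaffold Shank2 fell by 0.17 (adjusted p = 0.00381) and the presynaptic adhesion gene Nrxn3 by 0.27 (adjusted p = 0.00572), both without overlap. Of 17 AMPA, NMDA and kainate receptor subunits 5 fell and none rose; after centring 5 were lower and 8 higher, and of its 9 wide genes 5 were lower and 0 higher. Grin2b, the NMDA receptor subunit of slow currents, had 8.75, 8.94 and 9.27 with stress alone and 8.42, 8.55 and 8.61 with linalool (difference -0.46, SE 0.0864, adjusted p = 0.00349). Grin3a, a subunit that lowers calcium entry, fell by 0.35 (adjusted p = 0.00359) and Grin2a by 0.51 (adjusted p = 0.0141), and 3 of 3 probe sets of Grin2a fell. The arrays overlapped at Grin2a and not at Grin2b or Grin3a.

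GABA receptor subunits, the inhibitory counterparts, were also lower where they were called: 4 of 18 fell and none rose. The called share of 22.2% was below the 28.3% of all genes. After centring 5 were lower and 11 higher, with 5 lower and 1 higher among the 8 wide genes of the list. After quantile normalization 3 were lower and none higher. Gabra2, an alpha subunit of the GABA-A receptor, had 9.29, 9.54 and 9.72 in the stress arrays (lowest, median and highest) and 8.75, 9.02 and 9.12 in the linalool arrays (difference -0.58, SE 0.0929, adjusted p = 0.00159), without overlap. Gabra4 fell by 0.68 (adjusted p = 0.00731) and Gabrb2 by 0.37 (adjusted p = 0.00821). The call of Gabbr2, the GABA-B receptor subunit that couples to G proteins (-0.41, adjusted p = 0.0321), ended without linalool array 2, 3 or 5 or stress array 1, 3, 4 or 6 (-1.77 to -1.73 residual SDs). Of 7 metabotropic glutamate receptors, Grm3 fell (-0.35, adjusted p = 0.00703) and the others did not pass. The count was 2 without linalool array 6 or stress array 2 or 3.

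Among ion channels that set excitability, the called genes were mostly lower, but the called shares did not exceed the 28.3% of all genes. Of 75 potassium channel subunits 14 fell and 2, both compressed, rose (21.3% called, median -0.75 residual SDs). As deposited, 8 of the 23 wide ones fell and none rose, against 16.5% lower and 36.8% higher among all wide genes. The count of 14 was 8 without linalool array 2 or 5 or stress array 3 and 9 without stress array 4; after median centring 9 were lower and 54 higher, with 9 lower and 2 higher among the 23 wide genes. After quantile normalization 5 of the 75 were lower and none higher. Besides Kcnc2, Kcnma1, the large-conductance calcium-activated channel, had 8.53, 8.90 and 9.19 in the stress arrays (lowest, median and highest) and 7.58, 8.06 and 8.24 in the linalool arrays (difference -0.89, SE 0.147, adjusted p = 0.00188), and all 3 of its probe sets fell. Its groups did not overlap. Kcnd2, which carries the A-type current of dendrites, fell by 0.57 (adjusted p = 0.00458) with arrays that overlapped. Of 36 sodium and calcium channel subunits 10 fell and none rose (27.8% called). After centring 8 were lower and 22 higher, and of the 15 wide genes 8 were lower and 1 higher. After quantile normalization 6 were lower and none higher. Cacng7, an auxiliary subunit that also steers AMPA receptors, had 8.53, 8.70 and 8.82 with stress alone and 7.97, 8.20 and 8.32 with linalool (difference -0.49, SE 0.0742, adjusted p = 0.00123), and Cacna1c, the L-type calcium channel, fell by 0.25 (adjusted p = 0.00521). Neither gene's groups overlapped.

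**Figure D3:**
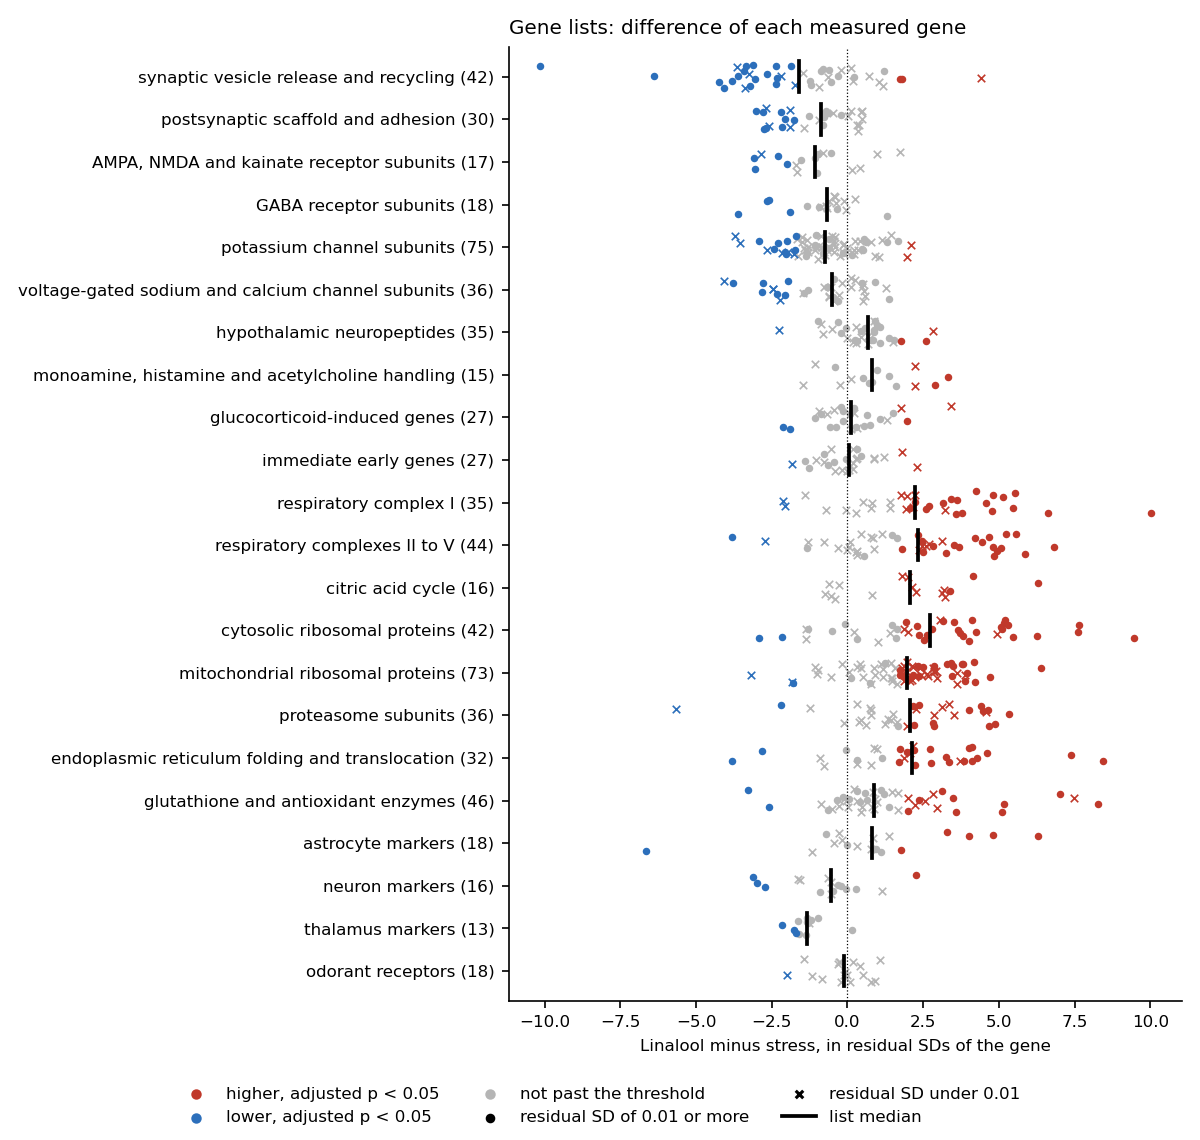
Difference between linalool and stress arrays of each measured gene of 22 gene lists (vertical axis, number of measured genes in brackets), in residual SDs of the gene (horizontal axis); red marks genes called higher and blue genes called lower, circles are wide genes, crosses compressed genes, and the black bar is the list median. As deposited, synaptic and channel lists lie left of 0 in the median, respiratory, ribosomal, proteasome and endoplasmic reticulum lists right of it, and odorant receptors around it, while median centring turned the lower calls of most compressed genes, the crosses, to higher.

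Many genes of energy metabolism rose. Of 35 complex I genes 24 rose and 2, both compressed, fell (median 2.24 residual SDs), and of 44 genes of complexes II to V 24 rose and 2 fell (median 2.34). All 18 wide complex I genes rose, and 19 of 24 wide genes of complexes II to V. Complex I scores per array ran from -2.29 to 0.18 in stress arrays and from 0.40 to 2.08 in linalool arrays. Stress array 2 was the stress array nearest to the linalool arrays. Cox7c, a small subunit of cytochrome c oxidase, had 11.45, 11.55 and 11.64 in the stress arrays (lowest, median and highest) and 11.83, 12.01 and 12.07 in the linalool arrays (difference 0.44, SE 0.0436, adjusted p = 0.000147), without overlap. Ndufa11, needed to assemble complex I, rose by 0.34 (adjusted p = 0.000199) and Atp5mk, a small subunit of ATP synthase, by 0.30 (adjusted p = 0.000191). Atp5f1d, the delta subunit of ATP synthase, went the other way (difference -0.24, SE 0.0366, adjusted p = 0.00114). Quantile normalization gave 16 higher and 7 lower in complexes II to V, and 17 and 1 in complex I.

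Of 16 citric acid cycle genes 10 rose and none fell (median 2.07 residual SDs), against 19.3% higher and 9.04% lower over all genes. After quantile normalization 3 were higher and 1 lower. Only 3 of the 16 are wide, namely Idh3g, Suclg1 and Suclg2, and all 3 rose. Idh3g, a regulatory subunit of isocitrate dehydrogenase, had 11.04, 11.15 and 11.21 in the stress arrays (lowest, median and highest) and 11.40, 11.45 and 11.53 in the linalool arrays (difference 0.32, SE 0.0294, adjusted p = 0.000118), without overlap. Suclg1 and Suclg2, subunits of succinyl-CoA ligase, rose by 0.21 and 0.15 (adjusted p = 0.000775 and 0.0021). Glycolysis was mixed: 5 of 15 genes rose and 2 fell, and after quantile normalization 2 were higher and 8 lower. The lactate dehydrogenase subunits Ldha and Ldhb rose by 0.30 and 0.11 (adjusted p = 0.00195 and 0.00971), while hexokinase 1 (Hk1) and the aldolase Aldoa fell by 0.20 and 0.15 (adjusted p = 0.00179 and 0.000301). The arrays of the groups overlapped at none of these 4 genes.

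The machinery that makes proteins rose in both the cytosol and the mitochondrion. Of 42 cytosolic ribosomal protein genes 28 rose and 2 fell (median 2.71 residual SDs), and of 73 mitochondrial ones 45 rose and 3 fell (median 1.97); among wide genes it was 24 of 33 and 21 of 25 that rose. By comparison, 19.3% of all genes and 36.8% of all wide genes rose. The median signals of the cytosolic and mitochondrial lists were 12.17 and 9.57, against 8.69 for all genes. After quantile normalization 21 cytosolic genes were higher and 4 lower, and 19 mitochondrial ones were higher and none lower. Rpl26, of the large cytosolic subunit, had 12.51, 12.60 and 12.66 in the stress arrays (lowest, median and highest) and 12.93, 13.01 and 13.02 in the linalool arrays (difference 0.39, SE 0.0296, adjusted p = 4.5e-05). Mrpl27, of the large mitochondrial subunit, had 10.21, 10.30 and 10.44 with stress alone and 10.64, 10.70 and 10.78 with linalool (difference 0.40, SE 0.0362, adjusted p = 0.000112). Neither gene's groups overlapped. Rpl7a fell by 0.13 without overlap (adjusted p = 0.00456). Ribosomal protein genes have many processed pseudogenes, and their probe sets may share transcripts. Of 60 translation initiation and elongation factors 28 rose and 7 fell; after quantile normalization 16 were higher and 9 lower. Eef1d and Eef1b2, exchange factors that recharge the elongation factor, rose by 0.41 and 0.39 (adjusted p = 4.1e-05 and 0.000139), while the scaffold Eif4g3 fell by 0.22 (adjusted p = 0.000611).

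Genes that handle proteins downstream of the ribosome rose as well. Of 32 genes of folding and translocation in the endoplasmic reticulum 21 rose and 2 fell (median 2.12 residual SDs), and 17 of 22 wide ones rose. The shares over all genes were 19.3% higher and 9.04% lower, and 36.8% of all wide genes rose. Sec61g had 10.30, 10.45 and 10.50 in the stress arrays (lowest, median and highest) and 10.90, 10.93 and 10.97 in the linalool arrays (difference 0.50, SE 0.034, adjusted p = 2.69e-05), and Sec61b, its partner in the same channel, had 9.88, 9.93 and 9.98 with stress alone and 10.18, 10.23 and 10.30 with linalool (difference 0.31, SE 0.024, adjusted p = 5.3e-05). At both genes every linalool array exceeded every stress array. Pdia6, which rearranges disulfide bonds, rose by 0.22 (adjusted p = 0.000449), whereas the calcium-binding chaperone Calr and the stress sensor Atf6 fell by 0.27 and 0.16 (adjusted p = 0.00524 and 0.0012). Of 36 proteasome subunits 19 rose and 2 fell (median 2.07), with 12 of 14 wide ones rising. Psmc5 and Psmc4, ATPases of the proteasome's base, rose by 0.25 and 0.18 (adjusted p = 0.000342 and 0.000238), and Psma6 of the core fell by 0.16 (adjusted p = 0.0172). Of 31 heat shock chaperones 12 rose and none fell, among them Cct6a of the ring chaperonin (0.16, adjusted p = 0.000235) and Hspa4 (0.23, adjusted p = 0.00191). Quantile normalization left more higher than lower genes in all 3 lists, with 14 and 3, 12 and 1, and 11 and 1.

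Among RNA-processing genes, 26 of 70 splicing factors rose and 7 fell (median 0.99 residual SDs), against 19.3% higher and 9.04% lower over all genes. Of the 17 wide ones 13 rose and 3 fell, against 36.8% and 16.5% of all wide genes. After quantile normalization 12 of the 70 were higher and 7 lower. U2af1l4, a paralog of the factor that reads the end of introns, and Snrpe, of the core of the spliceosome, rose by 0.30 and 0.30 (adjusted p = 4.24e-05 and 0.00012), while the RNA-binding proteins Hnrnpd and Hnrnpa0 fell by 0.19 and 0.12 (adjusted p = 0.000697 and 0.00162). Hnrnpc, of the same family, rose by 0.32 (adjusted p = 0.000219). Zinc finger genes were close to the background: 49 of 216 rose and 15 fell (9 without linalool array 1 or stress array 3), and only 18 of them are wide. The median of 0.42 residual SDs compares with 0.23 over all genes.

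As single examples, windows of 110 bases around the annotated start are printed for 4 genes that rose and 2 that fell, from RefSeq on the build GRCr8: 80 bases before the start and 30 after it, 5' to 3' on the gene's strand. Capitals mark the letters AAGATGGC, the core read by the zinc finger factor YY1, or CCGGAAGT, read by ETS factors such as GABPA. The windows lie at chr1:74515529-74515638 (minus strand) for Ndufa3, chr1:163195747-163195856 (minus strand) for Rps3, chr8:118468143-118468252 (plus strand) for Uqcrc1, chr10:80092265-80092374 (plus strand) for Mrpl27, chr2:176529746-176529855 (minus strand) for Syt11 and chr13:84380997-84381106 (plus strand) for Rgs5.
Ndufa3: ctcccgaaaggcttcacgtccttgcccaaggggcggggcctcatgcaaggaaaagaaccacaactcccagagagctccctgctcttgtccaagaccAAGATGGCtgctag
Rps3: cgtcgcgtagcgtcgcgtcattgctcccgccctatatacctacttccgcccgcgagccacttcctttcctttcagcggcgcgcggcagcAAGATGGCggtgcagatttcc
Uqcrc1: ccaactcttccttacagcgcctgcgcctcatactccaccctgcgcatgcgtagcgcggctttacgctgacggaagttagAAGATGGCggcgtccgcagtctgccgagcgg
Mrpl27: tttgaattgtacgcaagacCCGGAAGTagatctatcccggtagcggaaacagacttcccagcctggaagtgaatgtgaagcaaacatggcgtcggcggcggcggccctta
Syt11: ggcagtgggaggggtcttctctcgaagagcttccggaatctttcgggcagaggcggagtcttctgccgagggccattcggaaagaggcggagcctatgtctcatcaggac
Rgs5: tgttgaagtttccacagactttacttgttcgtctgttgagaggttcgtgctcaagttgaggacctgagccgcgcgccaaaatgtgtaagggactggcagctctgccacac

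In Ndufa3, Rps3 and Uqcrc1, the last a core subunit of complex III that rose by 0.36 (adjusted p = 8.36e-05), AAGATGGC begins at positions 17, 10 and -1 relative to the start, and it contains the letters ATG. In Mrpl27, CCGGAAGT begins at position -61. The windows of Syt11 and Rgs5 held neither run of letters. These 6 genes were chosen after their values were seen and do not stand for their classes. Among promoters of all genes called higher, only 7.32% held AAGATGGC and 10.7% CCGGAAGT.

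Over all genes with exactly 1 listed start, 10918 had a promoter of 300 bases (250 before the start and 50 after), of which 2241 belonged to genes called higher, 961 to genes called lower and 7716 to genes not called. Counted over all genes, most of those called are compressed: 992 of 2744 higher and 445 of 1285 lower genes are wide. The direction of most genes in these classes was therefore not stable against scaling. Shares and GC content among wide genes alone are not given, here or by signal level. On either strand, CCGGAAGT was found in 10.7% of promoters of genes called higher, 4.89% of those called lower and 6.97% of all. AAGATGGC was found in 7.32%, 5.83% and 4.90%. The palindrome GCGCATGC, read by the respiratory factor NRF1, was found in 6.87%, 4.27% and 4.33%. The CCAAT box (CCAAT) was found in 39.8% of promoters of genes called higher, 31.3% of those called lower and 37.3% of all, and TATAAA, the TATA box, in 5.98%, 6.35% and 8.46%. GGGCGG, bound by Sp1, was found in 63.6%, 64.6% and 58.0%. The E-box CACGTG was found in 9.82%, 7.28% and 9.10%, the antioxidant response element TGACNNNGC in 15.4%, 13.4% and 14.4%, the cAMP response element TGACGTCA in 3.21%, 2.91% and 2.87%, and TCAGCACC, part of the site of the neuronal repressor REST, in 1.70%, 2.19% and 1.90%. In proportion, the ETS letters differed most between genes called higher and lower.

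These shares also moved with signal level. With the genes split by signal into 3 groups of equal size, CCGGAAGT was held in the lowest group by 5.51% of genes called higher, 5.02% of those called lower and 3.05% of those not called; in the middle group by 12.9%, 5.10% and 7.86%, and in the highest group by 10.0%, 4.69% and 8.79%. For AAGATGGC the order of genes called higher and lower was not the same in each group: 4.78% and 2.74% in the lowest, 6.67% and 7.14% in the middle and 8.56% and 6.47% in the highest. Most matches of AAGATGGC, 290 of 535 promoters, began after the start, against 95 of 761 for CCGGAAGT. By list, AAGATGGC was held by 27.3% of complex I, 24.6% of mitochondrial ribosomal and 21.9% of proteasome promoters, but by 11.4% of cytosolic ribosomal, 7.69% of endoplasmic reticulum, 6.45% of splicing factor, 2.94% of glutathione and none of the 27 heat shock chaperone promoters. It was held by 2.94% of synaptic vesicle, 4.76% of postsynaptic and none of the 46 potassium channel promoters. Promoters of genes called lower had a median GC content of 64.0%, above the 60.0% of genes called higher and the 59.7% of genes not called. By signal, the medians of genes called higher, lower and not called were 57.3%, 59.0% and 56.0% in the lowest group. They were 59.7%, 64.7% and 61.3% in the middle and 60.7%, 66.0% and 63.0% in the highest. A match of letters is a description and not a bound site.

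**Figure D4:**
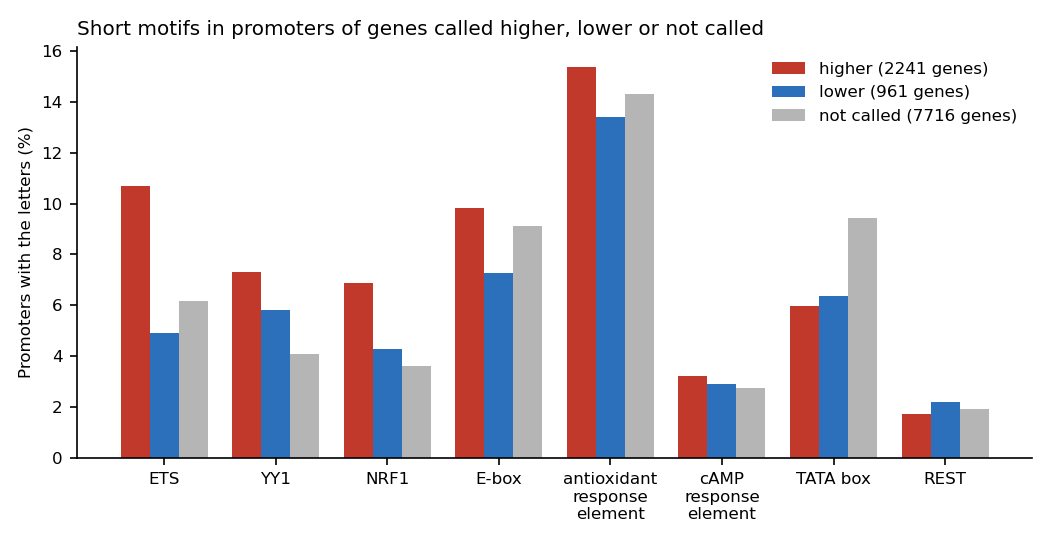
Share of promoters (vertical axis, percent) that hold each of 8 short motifs (horizontal axis) among genes called higher, called lower and not called with linalool; the bars are shares of genes and carry no error. The ETS bar is tallest in genes called higher (10.7% against 4.89% and 6.16%), and the TATA box bar is tallest in genes not called (9.45%). Over all genes, most of those called higher or lower are compressed.

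Few of the hypothalamus's own peptide genes were called. Of 35 neuropeptide genes 3 rose (Npy, Sst and the compressed Nucb2) and 1 fell (the compressed Rln3), below the background. The list's median was 0.67 residual SDs, 26 of the 35 had a higher mean with linalool, and its mean score per array was -0.84 to 0.02 in the stress arrays and 0.08 to 0.64 in the linalool arrays, without overlap. After median centring 19 were called higher and none lower, 4 of them wide, and after quantile normalization 2 and none. Npy, the peptide of arcuate neurons that drive feeding, had 9.37, 9.45 and 9.70 in the stress arrays (lowest, median and highest) and 9.63, 9.77 and 9.94 in the linalool arrays (difference 0.31, SE 0.0678, adjusted p = 0.00779). The groups overlapped. Sst, somatostatin, which restrains growth hormone, had 9.75, 9.97 and 10.07 with stress alone and 9.95, 10.32 and 10.76 with linalool (difference 0.44, SE 0.144, adjusted p = 0.0426), and its call ended without linalool array 2, 4 or 5 or any stress array (1.60 to 1.82 residual SDs). Crh, the releasing hormone at the head of the stress axis, had 7.55, 7.71 and 8.01 with stress alone and 7.29, 7.90 and 8.05 with linalool (0.07, adjusted p = 0.73), and vasopressin (Avp) 9.73, 11.58 and 12.21 with stress alone and 10.58, 11.84 and 12.56 with linalool (0.38, adjusted p = 0.598). Oxytocin (Oxt) had 7.99, 11.14 and 11.48 with stress alone and 8.70, 11.38 and 11.71 with linalool (0.29, adjusted p = 0.797). At Oxt 1 array of each group lay far below the other 5. The residual SDs of Avp and Oxt, 0.839 and 1.24, were larger than their differences. Trh, Gal, Hcrt and Pmch, which encode thyrotropin-releasing hormone, galanin, orexin and melanin-concentrating hormone, differed by -0.01, 0.29, 0.46 and 0.16, and none passed (adjusted p = 0.971, 0.351, 0.191 and 0.486). Cartpt differed by 0.31 (adjusted p = 0.0696) and the compressed Pomc by 0.44 residual SDs (adjusted p = 0.616).

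Of 13 granins and prohormone-processing genes 2 rose (1 without linalool array 2 or 6 or stress array 3, 4 or 6 and 4 without stress array 2) and 3 fell (1 without linalool array 1 or 5 or stress array 3). Chga, chromogranin A of dense-core granules, had 9.96, 10.01 and 10.09 in the stress arrays (lowest, median and highest) and 10.23, 10.34 and 10.51 in the linalool arrays (difference 0.33, SE 0.0453, adjusted p = 0.000693), and Vgf, a granin induced by activity, had 11.10, 11.20 and 11.28 with stress alone and 10.68, 10.80 and 11.06 with linalool (difference -0.37, SE 0.0586, adjusted p = 0.00145). Both were separated without overlap, in opposite directions. Of 15 genes of monoamine, histamine and acetylcholine handling 4 rose and none fell. The called share of 26.7% was near the 28.3% of all genes. Of its 9 wide genes 2 rose, against 36.8% of all wide genes. Hdc, the enzyme that makes histamine in the tuberomammillary neurons, had 8.36, 8.57 and 8.83 in the stress arrays (lowest, median and highest) and 9.0, 9.14 and 9.54 in the linalool arrays (difference 0.60, SE 0.105, adjusted p = 0.00244), without overlap. Ddc, which makes dopamine and serotonin from their precursors, had 10.06, 10.16 and 10.28 with stress alone and 10.28, 10.41 and 10.52 with linalool (difference 0.25, SE 0.0496, adjusted p = 0.00479), and the ranges met without overlapping. Th, the first enzyme of dopamine synthesis, differed by 0.19 and did not pass (adjusted p = 0.242). Of 16 genes of GABA and glutamate synthesis and transport 3 rose and 2 fell. Gad2, the brighter probe set of Gad1 and Slc17a6 did not pass (-0.24, 0.09 and -0.23, adjusted p = 0.433, 0.629 and 0.124), while the dimmer probe set of Gad1 rose by 0.67 (SE 0.161, adjusted p = 0.0119), from 7.74 to 8.48 under stress to 8.28 to 9.12 with linalool, with overlap. The GABA transporter Slc6a11 of astrocytes had 9.56, 9.64 and 9.71 with stress alone and 9.06, 9.14 and 9.26 with linalool (difference -0.49, SE 0.0429, adjusted p = 9.92e-05), and the glutamine transporter Slc38a2 rose by 0.17 (adjusted p = 0.00693).

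Few glucocorticoid-induced and immediate early genes were called. Of 27 glucocorticoid-induced genes 3 rose and 2 fell (median 0.11 residual SDs), and of 27 immediate early genes 2 rose and 1 fell (median 0.06), all 3 of the latter compressed. The count of glucocorticoid-induced genes that rose was 1 without linalool array 2, 3 or 5 or stress array 3, 4 or 6, and of those that fell 1 without linalool array 1, 3, 4 or 6 or stress array 1, 2, 3 or 4. The count of immediate early genes that rose was 1 without linalool array 1, 2, 4, 5 or 6 or stress array 1, 2, 3, 4 or 6, and of those that fell 0 without linalool array 1, 3 or 4 or stress array 2, 3, 4 or 5. Both shares lie below the 28.3% of all genes. Fos, the standard marker of recent neuronal activity, had 8.86, 8.99 and 9.29 in the stress arrays (lowest, median and highest) and 8.90, 9.01 and 9.23 in the linalool arrays (difference -0.01, SE 0.0833, adjusted p = 0.959), and Egr1 had 9.60, 9.81 and 10.36 with stress alone and 9.36, 9.69 and 10.09 with linalool (-0.20, adjusted p = 0.344). Fos had nearly the same range in both groups, and the ranges of Egr1 overlapped in part. Sgk1, a kinase induced by corticosteroids, had 11.75, 12.47 and 12.79 with stress alone and 12.11, 12.37 and 12.59 with linalool (difference -0.04, SE 0.175, adjusted p = 0.879), and Fkbp5, a chaperone that feeds back on the glucocorticoid receptor, differed by 0.15 (SE 0.131, adjusted p = 0.433). Tsc22d3, another target, rose by 0.25 (adjusted p = 0.0294), a call that ended without linalool array 2, 3 or 5 or stress array 3, 4 or 6 (1.78 to 1.85 residual SDs). Per1, a clock gene that glucocorticoids induce, fell by 0.04 (adjusted p = 0.0324), which ended without linalool array 1, 3, 4 or 6 or stress array 1, 2, 3 or 4 (-1.84 to -1.72 residual SDs). The glucocorticoid receptor Nr3c1 and the early gene Nr4a1 are compressed and did not pass (-1.29 and 0.87 residual SDs, adjusted p = 0.126 and 0.293).

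Of 46 glutathione and antioxidant genes 15 rose and 2 fell (median 0.89 residual SDs), against 19.3% higher and 9.04% lower over all genes. Of the 22 wide ones 9 rose and 2 fell, against 36.8% and 16.5% of all wide genes, so the share that rose was near the background. After quantile normalization 8 of the 46 were higher and 3 lower. Gstm1, which conjugates glutathione to reactive compounds, had 11.08, 11.15 and 11.23 in the stress arrays (lowest, median and highest) and 11.49, 11.58 and 11.64 in the linalool arrays (difference 0.42, SE 0.0292, adjusted p = 3.18e-05). Prdx6, a peroxiredoxin that reduces lipid peroxides, had 11.69, 11.72 and 11.76 with stress alone and 11.94, 12.04 and 12.10 with linalool (difference 0.31, SE 0.0258, adjusted p = 6.93e-05). Both rose in every linalool array above every stress array. The cytosolic superoxide dismutase gene Sod1 and Sqstm1, a target of the antioxidant factor Nrf2 and an autophagy receptor, fell by 0.16 and 0.30 (adjusted p = 0.00838 and 0.00249). Liver-type drug and xenobiotic enzymes were mostly at low signal: 5 of 58 rose and 1 fell (2 without linalool array 3 and 3 without stress array 6), a smaller share than the background. Of 18 p53 target genes 4 rose and 5 fell (2 without linalool array 2 or stress array 1 or 4 and 3 without linalool array 1 or stress array 2 or 6). Only 6 of the 18 are wide, of which 1 rose and 1 fell. After median centring 14 of the 18 were higher and 1 lower.

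Marker genes of cell types gave the following. Of 16 neuron markers 3 fell (Elavl3, Rbfox3 and Syt1) and 1 rose (Uchl1), with mean scores of -0.08 to 0.68 in the stress arrays and -1.07 to 0.56 in the linalool arrays, which overlapped. Rbfox3, the nuclear antigen NeuN, had 10.62, 10.64 and 10.68 in the stress arrays (lowest, median and highest) and 10.26, 10.34 and 10.62 in the linalool arrays (difference -0.27, SE 0.0558, adjusted p = 0.00614), with overlap, and Elavl3, a neuronal RNA-binding protein, fell by 0.28 (adjusted p = 0.00412). Uchl1, an abundant neuronal ubiquitin hydrolase, rose by 0.22 (adjusted p = 0.0156). The list's median was -0.54 residual SDs, and quantile normalization gave 7 lower and none higher. Of 18 astrocyte markers 5 rose and 1 fell, with scores of -0.78 to -0.07 in the stress arrays and -0.54 to 1.11 in the linalool arrays. Mlc1, a membrane protein of astrocyte endfeet, had 11.41, 11.53 and 11.65 in the stress arrays (lowest, median and highest) and 12.00, 12.06 and 12.18 in the linalool arrays (difference 0.54, SE 0.0494, adjusted p = 0.000116), Glul, glutamine synthetase, rose at all 3 of its probe sets (0.25 and 0.64 at the 2 named), and Slc1a2 fell, as given above. Astrocyte genes moved in both directions. The part of cell composition in the synaptic and metabolic lists was not tested.

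Of 16 microglial markers 3 rose, of 18 endothelial markers 2 rose, of 15 myelin markers 2 rose and 1 fell, and of 12 choroid plexus markers none passed. All of these shares lie below the 28.3% of all genes. Tyrobp, a signalling adaptor of microglia, rose by 0.25 (adjusted p = 0.00283), Esam, an endothelial adhesion gene, by 0.14 (adjusted p = 0.000247), and of the myelin genes Ermn and Tspan2 rose by 0.35 and 0.20 (adjusted p = 0.00722 and 0.00221) and Mag fell by 0.24 (adjusted p = 0.00442). Of 8 blood cell markers 4 rose (Alas2, Hbb, Lyz2 and the compressed S100a9), with scores of -1.06 to 0.01 in the stress arrays and -0.18 to 1.67 in the linalool arrays. Alas2, the heme enzyme of red cells, had 7.71, 7.87 and 7.95 in the stress arrays (lowest, median and highest) and 8.05, 8.21 and 8.44 in the linalool arrays (difference 0.36, SE 0.0652, adjusted p = 0.00283), and the beta-globin gene Hbb had 11.44, 11.68 and 11.79 with stress alone and 11.68, 12.06 and 12.19 with linalool (difference 0.35, SE 0.0892, adjusted p = 0.0162). The groups did not overlap at Alas2 and did at Hbb.

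Tissue borders were checked in the same way. Thalamus markers, from the region above the hypothalamus, had a median of -1.33 residual SDs, and 3 of 13 fell: Ntng1 (-0.67, adjusted p = 0.019), Synpo2 (-0.62, adjusted p = 0.05, just under the threshold) and Adarb1 (-0.31, adjusted p = 0.0441). Per array their score ran from -0.87 to 1.98 in the stress arrays and -1.46 to 0.12 in the linalool arrays, so the groups overlapped. The count depended on single arrays: it was 1 without linalool array 2, 3, 4 or 5 or stress array 1, 3, 4 or 6 and 9 without stress array 2. Stress array 2 had the lowest score of the stress arrays. The calls of Synpo2 and Adarb1 ended without linalool array 1, 2, 3, 4 or 5 or stress array 1, 3, 4 or 6 (-1.70 to -1.52 residual SDs) and without linalool array 2, 3, 4 or 5 or stress array 1, 3, 4, 5 or 6 (-1.84 to -1.58 residual SDs). The excitatory transporter gene Slc17a6, abundant in thalamus and hypothalamus alike, did not pass. These markers moved with the groups in the same direction as the synaptic lists, and their part in them was not tested. Of 13 pituitary markers 1, compressed, fell.

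Genes of tissues that a block of brain should not hold were called less often than the average gene. Over 6 lists of odorant receptors, vomeronasal and taste receptors, liver and pancreas, testis, striated muscle and placental genes, 8 of 143 genes were called (5.59%), 4 higher and 4 lower. The median signal of each list lay between 6.62 and 7.52, below the 8.69 of all genes, and calls rose with signal throughout. With the members split by mean signal into 10 groups of equal size, 8.88% were called in the lowest group, 29.1% in the fifth and 44.4% in the highest. The split changed with it, from 36.2% of calls higher in the lowest group to 68.5% in the seventh and 64.0% in the highest. Probe sets without a gene symbol, 9780 in number and of lower signal (median 7.64 against 8.41 for members), were called in 17.5% of cases, and 41.5% of those calls were higher.

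**Figure D5:**
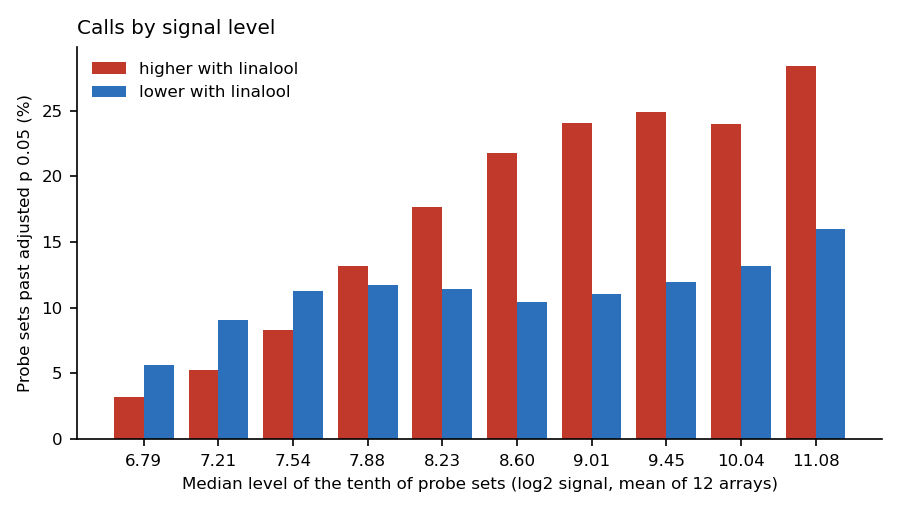
Percent of members called higher (red) and lower (blue) with linalool in 10 groups of equal size by mean signal (horizontal axis, median log2 signal of the group; vertical axis, percent of the group). Lower calls outnumber higher ones in the 3 lowest groups, and higher calls outnumber lower ones from the fourth group upward.

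Where a gene has several probe sets, they served as a check within the same arrays. Of 4525 genes with more than 1 probe set, 782 had at least 2 called, and in 659 of these (84.3%) all called probe sets went one way. In 123 they went both ways. Zfp106 is a case where both are wide: a probe set with signals of 8.24, 8.30 and 8.42 with stress alone and 7.56, 7.79 and 7.90 with linalool fell (difference -0.57, SE 0.0627, adjusted p = 0.000259), while another with 10.57, 10.60 and 10.67 with stress alone and 10.68, 10.77 and 10.86 with linalool rose (difference 0.17, SE 0.0287, adjusted p = 0.00195). Neither pair of groups overlapped. Cacna1a, the P/Q-type calcium channel, had a probe set that fell by 0.11 (adjusted p = 0.00166) and one that rose by 0.04 (adjusted p = 0.00275). In Gpx4, a selenoenzyme that guards lipids against peroxidation, the brighter probe set rose by 0.39 (adjusted p = 0.000291) and a compressed one was called lower (-3.57 residual SDs, adjusted p = 0.00168). Probe sets of 1 gene can read different transcript ends, and a gene-level value here is that of its brightest probe set.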

How the data were processed

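The values are log2 signals of 1 rat array each, as the authors deposited them. Per the labels' protocols, 500 ng of total RNA per rat were labelled with biotin, and per the series design the authors normalized these 12 arrays together. How probes were summarised and normalized: not given in the sources used here. No depth exists for arrays, and the number of arrays limits the precision.

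The 6 linalool and 6 stress arrays were compared by a two-sided linear model across all probe sets (lmFit and eBayes of limma 3.58.1, R 4.3.3, no filter) with Benjamini-Hochberg adjustment over 31099 probe sets, and tested on simulated data. No block was used. Symbols come from the platform annotation: 9780 probe sets had none and 436 had several, and neither are members. The members and the 58 gene lists were chosen with earlier results of these data known.

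Named genes follow a rule. It takes the 10 higher and 10 lower called members with the largest difference in residual SDs, and the same in log2 units, among members at or above the median signal whose groups do not overlap. From each list it takes up to 3 genes per direction by p, or every called gene where 5 or fewer were called; it adds a fixed set of hypothalamic and stress genes, 8 genes with probe sets in opposite directions, and the array controls. Not all of them are described: compressed genes and calls that ended without 1 array are mostly counted only. The further synaptic vesicle genes listed without values, the further probe sets and the promoters of single genes were chosen after their values were seen.

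Alternatives were median centring, quantile normalization, a replicate block, an exact rank-sum test, a mean-variance trend, no moderation, filters on signal and on residual SD, 1 probe set per gene, and leaving out each array. Promoters come from RefSeq (GRCr8), and 10 motifs were searched on both strands.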

Additional observations from a re-analysis of the deposited data

Results flagged for a closer look

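For some named probe sets, 1 array lay apart from the other 5 of its group, with a gap to its nearest neighbour that took a larger part of the group's range than Dixon's critical value at 95% allows. Among the stress arrays these were Oxt (0.765), Uchl1 (0.626), Dnm3 (0.716), Dnm3 (0.68), Rps3 (0.846), Eif4g3 (0.629), Sgip1 (0.801), Grin2a (0.758), Wsb2 (0.687), Hnrnpa0 (0.638) and Rxrb (0.817), where the share of the range is given in brackets and Dnm3 counts at 2 probe sets. Among the linalool arrays they were Oxt (0.703), Syt7 (0.726), Crh (0.667), Gad2 (0.694), Cds2 (0.682), Hnrnpc (0.791), Ermn (0.649), Mdm2 (0.738), Cox7c (0.691) and Cct6a (0.645). Chance alone flags about 1 in 20 groups.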

How the results depend on the processing

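Against the 5885 members called as deposited, 19406 were called after median centring, 2083 after quantile normalization (1887 of them among the 5885, 1855 in the same direction) and 2276 with only members of residual SD of at least 0.01 tested. Arrays did not overlap at 1341, 1453 and 1262 members in these 3 settings, against 2919. The called share that was higher, 60.4%, became 94.4% after median centring, 67.5% with 1 probe set per gene, 63.0% by the exact rank-sum test, 64.6% at or above the median signal, 56.5% with residual SD of at least 0.01, and 62.6% with the replicate block. Without 1 array, 4895 to 5717 members were called, 58.9 to 62.6% of them higher, and arrays did not overlap at 3073 to 3663, since fewer arrays separate more easily. Of the 57 control probe sets 23 were called, 53 after median centring and 11 after quantile normalization (20 to 25 without 1 array). In residual SDs, compressed members turned sign after median centring: Gpx4 (second probe set) to 1.32, Nr3c1 to 1.45, Rln3 to 1.41 and Sipa1l3 to 1.37. Fos, a wide gene that did not pass, moved from -0.05 to 0.00 there. After quantile normalization Gpx4 turned to 1.31, Rln3 to 0.02 and Sipa1l3 to 0.93. Fos, Oxt, Sgk1 and Trh, which did not pass, changed sign without some arrays: Fos ran from -0.35 to 0.36, Oxt from -0.27 to 0.73, Sgk1 from -0.81 to 0.12 and Trh from -0.33 to 0.57 residual SDs. The cause was not tested beyond the settings' own construction.

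With the replicate number as a block, 4289 members were called. Deviations from the group means of arrays with the same number correlated by only -0.102 to 0.191. Such correlations over many probe sets cannot exclude a step shared by arrays of 1 number, and no label says whether the numbers pair the arrays. The count of 4289 therefore describes a shared number only. The mean-variance trend (5455 members) and no moderation (5690) stayed within 1.5 times of the count. The limits are the compression of most values, of unstated origin, the joint normalization of only these 12 arrays, and the absence of any label that separates the order of processing from the odour. Protein length, a planned description, was not run.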
